A study of Mus musculus with 15 samples.

Results

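Libraries named H and libraries named L were compared after kainic acid (KA), with 3 libraries in each group (KA_H and KA_L) out of 15 in the series. KA activates kainate-type glutamate receptors and is used to provoke seizures in rodents as a model of temporal lobe epilepsy. Expression was measured by RNA sequencing of total RNA from the brain of C57BL/6 mice and given as TPM, a transcript level scaled to transcript length and to the library total. All 5 groups, the untreated controls included, carry the label of the KA-induced epilepsy model. CTRL_L was untreated, KA_L and KA_H were treated with KA, and APOE_L and APOE_H were treated with KA and APOE, a label that does not say what was done to the gene or its protein. The letters H and L are not defined in the sources used here, and age, sex, brain region, time after KA, any sorting of cells and whether libraries came from separate animals are not given there either. P-values therefore measure only the spread between libraries, which may be technical and was estimated from all 15.

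Every gene that reached 1 TPM in 3 or more KA libraries was examined, which kept 12319 of 65964 entries. Of these, 10307 had a gene symbol and 1889 were assembled loci without a gene name. In all, 592 entries passed only through KA_H, with each KA_L value under 1 TPM, and 140 only through KA_L. Such entries had to differ, so counts over them are a description. A tested gene printed below with all 3 KA_L values under 1 TPM is an entry that passed only through KA_H. KA_L libraries held 9931 to 12085 entries at 1 TPM or more and KA_H libraries 13192 to 13635. TPM keeps no read depth, which is therefore unknown. Libraries are written KA_L1 to KA_L3 and KA_H1 to KA_H3, and values are given in that order.

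The libraries were rich in microglial transcripts and poor in those of neurons and astrocytes. Microglia are the resident macrophages of the brain. At rest they express sensing receptors such as the purinergic receptor P2ry12, and after injury or lipid loading they can take up a disease-associated programme of lysosomal, lipid-handling and antigen-presenting genes. All 20 homeostatic microglia genes of the list were tested, and together they made up 35770.1 to 47816 TPM in KA_L and 48155 to 56354 TPM in KA_H. None of 20 neuron markers passed the filter, and 4 of 20 astrocyte markers did. Gfap, the astrocyte filament gene, had 0, 0 and 0 TPM in KA_L against 0, 0 and 0.95 TPM in KA_H. The neuronal gene Snap25 did not exceed 0.05 TPM. The myelin gene Mog was listed at 0 in all 6, but 4 of 14 oligodendrocyte genes, Mbp and Mag among them, passed the filter. That list summed to 125 to 258 TPM in KA_L and 190 to 525 TPM in KA_H, and none of its members was called. The label names brain as the tissue, and in bulk samples fewer cells of a type and less RNA per cell cannot be told apart.

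Between KA_H and KA_L, 431 entries differed (3.5% of those tested, limma on log2(TPM + 1), Benjamini-Hochberg adjusted p under 0.05). Of these, 338 were higher in KA_H (2.74%) and 93 were lower (0.755%). Counts of called members of a gene list are to be read against these shares of all tested entries. Choroid plexus transcripts, respiratory chain subunits, antioxidant enzymes and some antigen-presentation and lysosomal genes were among the higher ones. Long genes, the immediate early genes Fos and Jun and small structural RNAs were among the lower ones. In 197 of the 338 higher and 19 of the 93 lower entries all 3 values of the other group were under 1 TPM, so these passed the filter through 1 group only. With a mean of 5 TPM or more required in both groups, 67 were higher and 24 lower. Higher entries had a median log2 fold change of 4.56, and in 98 of them all 3 KA_L values were listed at 0. Lower entries had a median of -3.06, and in 14 of them all 3 KA_H values were listed at 0. The values of the groups did not overlap in any called entry except Cox5a. Over all tested entries, 12.8% lay without overlap in the higher and 11.6% in the lower direction, and the median log2 fold change was 0.01. Log2 fold changes are on the log2(TPM + 1) scale, which understates changes of genes near 0.

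**Figure D1:**
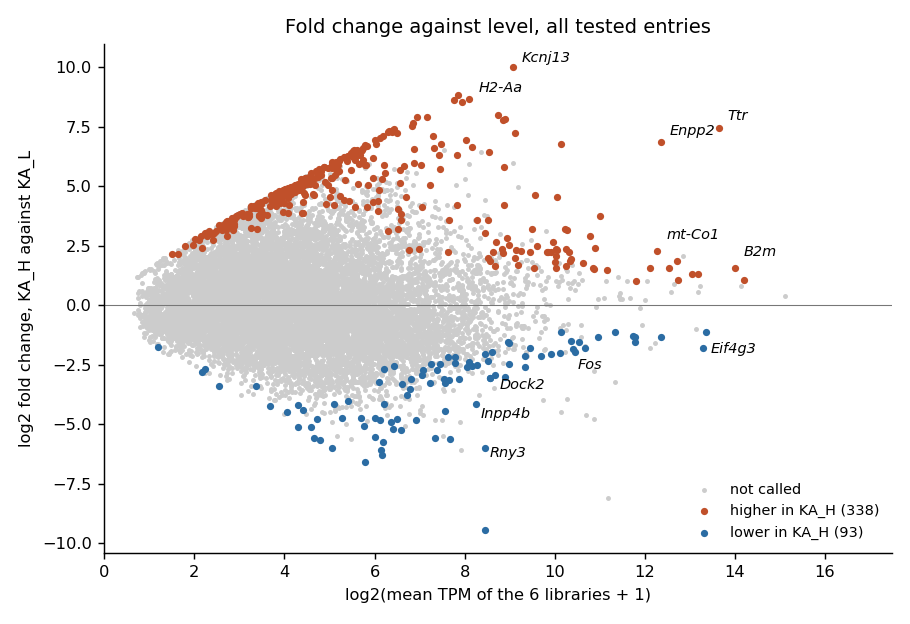
Log2 fold change of KA_H against KA_L (vertical axis) against log2(mean TPM of the 6 libraries + 1) (horizontal axis). Each of 12319 entries is 1 point, and those called higher or lower are coloured. The 338 higher entries are mostly of low to middle level, many of them at 0 in KA_L, and the 93 lower ones include abundant entries such as Eif4g3.

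The number of called entries depended on single libraries and on scaling. The count was 144 without KA_L1, 457 without KA_L2, 175 without KA_L3, 132 without KA_H1, 171 without KA_H2 and 99 without KA_H3. Under all 6 omissions 78 entries stayed called, 66 higher and 12 lower, and a gene named as called that did not stay so has, beside it, the highest adjusted p under an omission and the libraries concerned. The count was 96 with the 6 KA libraries fitted alone, 215 with CTRL_L added and 647 with the KA and APOE libraries, the last chosen after seeing the data. The main fit takes 1 spread per entry from all 15 libraries, but the groups differed in spread. The median SD of log2(TPM + 1) over tested entries was 1.47 in KA_L, 0.94 in KA_H, 1.38 in CTRL_L, 1.20 in APOE_L and 0.72 in APOE_H. The p-values therefore do not measure the spread of the KA libraries alone. Of the genes said to stay called under all 6 omissions, Apoc2, Fcer1g and Bsg were not called with the 6 KA libraries alone (adjusted p = 0.054, 0.0507 and 0.0584). Upper-quartile scaling moved the median of all entries to 0.60 and gave 729 higher and 42 lower entries, against 338 and 93 on the deposited scale. Counts and medians of gene lists under this scaling are to be read against that shift of all 12319 entries. The p-value under upper-quartile scaling is given for each described gene that lost its call under it.

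Choroid plexus genes had the highest median among lists with at least 5 tested members. The choroid plexus is the epithelium of the ventricles that secretes cerebrospinal fluid. Of 18 tested members 9 rose, none fell and 9 did not pass, where 2.74% of all tested entries rose. The list median log2 fold change was 6.03 against 0.01 over all entries. For 11 of the 18 the filter was passed only through KA_H. The listed genes summed to 57.9, 1341 and 166 TPM in the KA_L libraries and to 34092, 37518 and 42477 TPM in the KA_H libraries. CTRL_L libraries summed to 139.8, 40453 and 24677 TPM, so 2 of 3 untreated libraries lay far above KA_L and the other lay within its range. APOE_L ran from 126 to 297 TPM and APOE_H from 39849.9 to 61459 TPM.

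Single choroid plexus genes divided the libraries in the same way. Kcnj13, an inward-rectifier potassium channel of this epithelium, had 0.05, 0.01 and 0 TPM in KA_L against 779, 1125 and 1303 TPM in KA_H. It was nearly absent from KA_L and had the largest log2 fold change of the called genes with a symbol (10.003, adjusted p = 0.00541, limma). Igfbp2, an insulin-like growth factor binding protein, had 0, 0 and 0 TPM in KA_L against 90.1, 193 and 210.2 TPM in KA_H (adjusted p = 0.00941). Kcnj13 and Igfbp2 stayed called without any 1 of the 6 libraries, and the other 7 called members did not. Sostdc1, a secreted inhibitor of BMP and Wnt signals, had 0, 0 and 0 TPM in KA_L against 144, 141 and 226 TPM in KA_H (adjusted p = 0.011; 0.0619 without KA_H3). Prlr, the prolactin receptor, had 0, 0.01 and 0.01 TPM in KA_L against 86.2, 107 and 134 TPM in KA_H (adjusted p = 0.0206; 0.0965 without KA_H3 and above 0.05 without KA_L1, KA_L3, KA_H1 or KA_H2). Folr1, which carries folate into cerebrospinal fluid, had 0.06, 0 and 0 TPM in KA_L against 152, 150.5 and 201 TPM in KA_H (adjusted p = 0.0149; 0.0732 without KA_H3 and above 0.05 without KA_H1 or KA_H2). Ttr, transthyretin, which carries thyroid hormone and retinol-binding protein, made up most of the summed level in KA_H, with 31.6, 781 and 114 TPM in KA_L against 23632, 24072 and 28110.1 TPM in KA_H (adjusted p = 0.0311; 0.117 without KA_H3 and above 0.05 without KA_L1, KA_L3, KA_H1 or KA_H2). Kcne2 (adjusted p = 0.0484; 0.164 without KA_H3 and above 0.05 without KA_L1, KA_L3, KA_H1 or KA_H2) and Wfdc2 (adjusted p = 0.0308; above 0.05 without any 1 of the 6 libraries, up to 0.12 without KA_H1) were called too. Enpp2, encoding the lysophospholipase autotaxin, had 25.9, 484 and 51.5 TPM in KA_L against 8384, 11189 and 11243 TPM in KA_H (adjusted p = 0.0146; 0.0671 without KA_L1 and above 0.05 without KA_L3 or KA_H3). Kl, the klotho gene, had 0.02, 5.13 and 0.02 TPM in KA_L against 54.98, 76.4 and 90.6 TPM in KA_H and did not pass (adjusted p = 0.0573).

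Clu and Ptgds, which the choroid plexus also expresses, rose, as did 2 of 7 tested markers of the ependymal cells that line the ventricles. Clu, the apolipoprotein clusterin, had 0.14, 30.2 and 0.03 TPM in KA_L against 784, 962 and 767 TPM in KA_H (adjusted p = 0.0309; 0.11 without KA_H3 and above 0.05 without KA_L1, KA_L3, KA_H1 or KA_H2). Ptgds, the prostaglandin D synthase of cerebrospinal fluid, had 0, 124 and 1.73 TPM in KA_L against 1083, 909 and 1199.8 TPM in KA_H (adjusted p = 0.0148; 0.0698 without KA_H3 and above 0.05 without KA_L1, KA_L3 or KA_H1). In both genes KA_L2 was the highest of its group, as it was for the summed choroid plexus list. Of 7 tested ependymal markers Mia (0.0949 without KA_H3 and above 0.05 without KA_L1, KA_L3, KA_H1 or KA_H2) and Cfap126 (above 0.05 without any 1 of the 6 libraries, up to 0.164 without KA_H3) rose and 5 did not pass, with sums of 32.0 to 179 TPM in KA_L and 571 to 895 TPM in KA_H. Foxj1, the regulator of motile cilia, did not exceed 0.4 TPM in the 6 libraries, and Tmem212 was listed at 0. With TPM rescaled after leaving out the choroid plexus, ependymal, neutrophil and red blood cell lists, 411 entries were called, 402 of them among the 431. This rescaling changes only the library total and takes no choroid plexus RNA out of the values of other genes. The part of choroid plexus RNA in the other differences was therefore not tested.

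Of the blood cell markers, 2 neutrophil genes rose. S100a8 and S100a9, the calprotectin subunits of neutrophils and monocytes, were listed at 0 in all 3 KA_L libraries, with 457, 873 and 129 TPM of S100a8 and 354, 399 and 96.4 TPM of S100a9 in KA_H. Both rose (adjusted p = 0.0149, and 0.0542 without KA_H1 and above 0.05 without KA_L1 or KA_H2, for S100a8; adjusted p = 0.0166, and 0.06 without KA_H1 and above 0.05 without KA_L1, KA_L3 or KA_H2, for S100a9). Of 18 neutrophil markers 3 passed the filter, and the list summed to 26.4 to 113 TPM in KA_L and 415 to 1334 TPM in KA_H. Ngp had 0, 0 and 0 TPM in KA_L against 77.4, 12.4 and 0 TPM in KA_H, and the defining markers Ly6g and Ltf were listed at 0 in all 6. Red blood cell genes summed to 81.0 to 156 TPM in KA_L and 384 to 4107 TPM in KA_H, and none of 4 tested passed. Reads of the near-identical globin copies cannot be divided with certainty. The part of blood in the other differences was not tested either.

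Among markers of border macrophages, which line the meninges and choroid plexus, Pf4 and Ms4a7 (0.164 without KA_H3 and above 0.05 without KA_L1, KA_L2, KA_L3 or KA_H2) rose and 7 of 9 did not pass. Pf4, a chemokine shared with platelets, had 0, 5.82 and 0 TPM in KA_L against 182, 70.5 and 436 TPM in KA_H (adjusted p = 0.0129; 0.083 without KA_H3 and above 0.05 without KA_H1). The whole border macrophage list overlapped, with 668 to 1076 TPM in KA_L and 595 to 795 TPM in KA_H. In the endothelial list 1 of 7 was called. This was Bsg, encoding basigin, a partner of lactate transporters found in many cell types, with 60.4, 111 and 237 TPM in KA_L against 894, 751 and 868 TPM in KA_H (log2 fold change 2.83, SE 0.46, adjusted p = 0.00445), and it stayed called under all 6 omissions. Cldn5, the tight junction gene of endothelium, had 0, 0 and 0 TPM in KA_L against 0, 0 and 13.5 TPM in KA_H. Pdgfrb, a pericyte receptor, had 641, 283 and 453 TPM in KA_L against 3.67, 58.8 and 0 TPM in KA_H and did not pass (adjusted p = 0.0562).

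Astrocyte genes, named in the title of the series, gave few values to compare. Slc1a3, a glutamate transporter, had 157, 149 and 138 TPM in KA_L against 51.2, 38.6 and 33.5 TPM in KA_H, and Glul, glutamine synthetase, had 119.9, 224 and 59.1 TPM in KA_L against 39.8, 46.7 and 31.7 TPM in KA_H. Both lay below KA_L in each KA_H library and did not pass (adjusted p = 0.125 and 0.187). The other 2 tested markers lay the opposite way, also without overlap, and did not pass. Atp1b2, a sodium pump subunit, had 0, 0 and 0.06 TPM in KA_L against 7.05, 27.8 and 13.8 TPM in KA_H (adjusted p = 0.0634), and Slc7a10, an amino acid transporter, had 0, 0 and 0 TPM in KA_L against 12.4, 7.76 and 19.9 TPM in KA_H (adjusted p = 0.122). Both passed the filter only through KA_H, and the list median was 1.09. Of 38 genes linked to reactive astrocytes 15 were tested, and Tm4sf1 alone was called, with 0, 0 and 0 TPM in KA_L against 29.8, 13.5 and 45.2 TPM in KA_H (adjusted p = 0.0148; 0.0634 without KA_H3 and above 0.05 without KA_L1). Srgn, on the same list and abundant in myeloid cells, did not pass (adjusted p = 0.806).

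Nuclear-encoded subunits of the respiratory chain were higher in KA_H. The chain passes electrons from NADH and succinate to oxygen through complexes I to IV, and ATP synthase uses the resulting proton gradient. Of 79 tested subunits 21 rose and none fell, and in 57 every KA_H value lay above every KA_L value. Over all tested entries 2.74% rose and 12.8% lay higher without overlap. By list, 7 of 37 complex I subunits rose (median log2 fold change 1.97), as did 3 of 14 in complexes II and III (2.14), 6 of 11 in complex IV (2.32) and 5 of 17 in ATP synthase (2.22). The counts were the same after rescaling without the choroid plexus, ependymal and blood cell lists, which changes only the library total. Under upper-quartile scaling the counts were 19, 7, 10 and 10, where 729 of all 12319 tested entries were called higher. Among tested protein-coding genes in the shortest quartile of exonic length, 7.72% rose, with a median log2 fold change of 1.28. The subunits were not compared with genes of like length.

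In complex I, Ndufa1 had 138, 314 and 471 TPM in KA_L against 2688, 3604 and 5029 TPM in KA_H. Its KA_H values were all several times the highest KA_L value (log2 fold change 3.73, SE 0.57, adjusted p = 0.00348, limma). Ndufa4, now assigned to complex IV by some, had 155, 435 and 176 TPM in KA_L against 1619.9, 2530.4 and 2265 TPM in KA_H (adjusted p = 0.00676). Ndufa3 had 415, 410.2 and 489 TPM in KA_L against 1454, 2663 and 2260.0 TPM in KA_H (adjusted p = 0.00367). These 3 stayed called under all 6 omissions and were fully apart between the groups. Ndufb6 was unsteady in KA_L, with 0, 137 and 0 TPM in KA_L against 339.9, 377 and 512 TPM in KA_H (adjusted p = 0.0397; 0.149 without KA_H3 and above 0.05 without KA_L1, KA_L3, KA_H1 or KA_H2). Ndufb5 had 7.56, 34.4 and 76.4 TPM in KA_L against 283, 254 and 546 TPM in KA_H (adjusted p = 0.0148; 0.089 without KA_H3 and above 0.05 without KA_L1). Ndufa11 and Ndufb3 rose as well (adjusted p = 0.0497 and 0.0363). Under omissions the adjusted p was 0.181 without KA_H3 and above 0.05 without KA_L1, KA_L2, KA_H1 or KA_H2 for Ndufa11, and 0.138 without KA_H3 and above 0.05 without KA_L3, KA_H1 or KA_H2 for Ndufb3.

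Further along the chain, Sdhd, a membrane anchor of succinate dehydrogenase, had 0, 0.64 and 0.05 TPM in KA_L against 241, 155 and 281 TPM in KA_H (adjusted p = 0.00862). It was close to 0 in each KA_L library, while its partners Sdhb and Sdhc overlapped between the groups (log2 fold change 0.24 and -0.10, adjusted p = 0.924 and 0.963). Uqcr11, a small subunit of complex III, had 261, 411 and 304 TPM in KA_L against 1639, 1136 and 2481 TPM in KA_H (log2 fold change 2.38, SE 0.40, adjusted p = 0.00541). Cox6a1 of complex IV had 258, 502.13 and 148 TPM in KA_L against 1497, 1503 and 2112 TPM in KA_H (log2 fold change 2.65, SE 0.42, adjusted p = 0.00407). Sdhd, Uqcr11 and Cox6a1 stayed called under all 6 omissions, as did Cox8b. Cox8b, the heart and muscle form of a complex IV subunit, had 0, 0 and 0 TPM in KA_L against 217, 398 and 686 TPM in KA_H (adjusted p = 0.00348). Cox5a was the 1 called gene whose groups overlapped, with 0, 204 and 0.58 TPM in KA_L against 195, 179 and 322 TPM in KA_H (adjusted p = 0.0479; 0.177 without KA_H3 and above 0.05 without KA_L1, KA_L3, KA_H1 or KA_H2). The remaining called complex IV members were Cox6b1 (0.0965 without KA_H3 and above 0.05 without KA_L1, KA_H1 or KA_H2), Cox6c (above 0.05 without any 1 of the 6 libraries, up to 0.142 without KA_H3), Cox7a2l (above 0.05 without any 1 of the 6 libraries, up to 0.136 without KA_H3) and Cox8a (0.0965 without KA_H3 and above 0.05 without KA_L1, KA_L3 or KA_H2). In ATP synthase, Atp5g1, a subunit of the rotating ring, had 58.7, 272 and 8.58 TPM in KA_L against 1094, 1163 and 1911 TPM in KA_H (adjusted p = 0.0129; 0.0698 without KA_H3). Atp5h (0.0965 without KA_H3 and above 0.05 without KA_L3 or KA_H1), Atp5j (0.126 without KA_H3 and above 0.05 without KA_L1 or KA_H2), Atp5l (above 0.05 without any 1 of the 6 libraries, up to 0.124 without KA_H3) and Atp5mpl (0.0965 without KA_H3 and above 0.05 without KA_L3, KA_H1 or KA_H2) rose too. Uqcr10 of complex III was also called (0.0973 without KA_H3 and above 0.05 without KA_L1 or KA_H1).

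Transcripts of the mitochondrial genome were higher in KA_H by less. The 14 tested members held 5.16%, 5.36% and 3.79% of the total in KA_L and 9.14%, 10.9% and 7.92% in KA_H, without overlap. Of these mt-Co1, mt-Cytb, mt-Nd1, mt-Nd5 and mt-Rnr2 rose and 9 did not pass (median log2 fold change 1.01). The number called higher was 11 under upper-quartile scaling, 2 under quantile normalization and 3 with TPM rescaled without assembled loci. mt-Co1, the catalytic core of complex IV, had 2498, 1508 and 1247 TPM in KA_L against 7241, 9329 and 8003 TPM in KA_H (log2 fold change 2.28, SE 0.28, adjusted p = 0.000763) and stayed called under all 6 omissions. mt-Nd5 had 487, 562 and 497 TPM in KA_L against 1474, 1938 and 1282 TPM in KA_H (adjusted p = 0.0187; 0.0767 without KA_H2 and above 0.05 without KA_L1, KA_L3, KA_H1 or KA_H3). The adjusted p of mt-Cytb was 0.0739 without KA_L3 and above 0.05 without KA_H1 or KA_H2. The adjusted p of mt-Nd1 was above 0.05 without any 1 of the 6 libraries, up to 0.154 without KA_H2, and that of mt-Rnr2 above 0.05 without any 1 of the 6 libraries, up to 0.128 without KA_H2. The entries Gm28437, Gm28661 and Gm29216, copies of mitochondrial sequence, were called too (Gm28437 0.127 without KA_L3 and above 0.05 without KA_L1, KA_H1, KA_H2 or KA_H3), but reads cannot be divided with certainty between such copies and the mitochondrial genes.

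Glycolysis and fatty acid oxidation had fewer called members. Over all tested entries 2.74% rose. Eno1 (0.124 without KA_H3 and above 0.05 without KA_L1, KA_H1 or KA_H2) and Ldha rose among 17 glycolytic genes (median log2 fold change 1.86). Ldha, lactate dehydrogenase A, had 12.2, 23.5 and 14.8 TPM in KA_L against 218, 111 and 168 TPM in KA_H (adjusted p = 0.0152; 0.0728 without KA_H1 and above 0.05 without KA_L1 or KA_H3). Gapdh had 196, 372 and 38.2 TPM in KA_L against 588, 424 and 595 TPM in KA_H and did not pass (adjusted p = 0.12). Slc25a20, Acaa2 and Etfb (0.187 without KA_H3 and above 0.05 without KA_L1, KA_L3, KA_H1 or KA_H2) rose among 21 fatty acid oxidation genes (median 1.76). Slc25a20 and Acaa2 passed the filter only through KA_H, so their direction was fixed by it. Acaa2, a mitochondrial thiolase, had 0, 0 and 0.04 TPM in KA_L against 126, 12.6 and 76.3 TPM in KA_H (adjusted p = 0.0162; 0.0872 without KA_H3 and above 0.05 without KA_H1). The carnitine carrier Slc25a20 had 0.09, 0.34 and 0.2 TPM in KA_L against 29.4, 9.7 and 21.4 TPM in KA_H (adjusted p = 0.0206; 0.0778 without KA_H3 and above 0.05 without KA_L1, KA_L3 or KA_H1).

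Lipid-handling genes, also named in the title, moved unevenly. None of 16 lipid droplet and triglyceride genes passed (median log2 fold change 0.18). Plin2, the coat protein of lipid droplets, had 0.13, 184 and 19.3 TPM in KA_L against 14.4, 12.2 and 32.6 TPM in KA_H, with overlapping groups (adjusted p = 0.962). None of 14 cholesterol synthesis genes passed either (median 1.95). Of 17 genes of cholesterol and phospholipid efflux, Apoc2, Clu, Ch25h and Apod rose, where 2.74% of all tested entries did. Apoc2 and Apod passed the filter only through KA_H, so their direction was fixed by it. Apoc2, the activator of lipoprotein lipase, had 0, 0 and 0 TPM in KA_L against 61.7, 53.3 and 42.9 TPM in KA_H (adjusted p = 0.000763) and stayed called under all 6 omissions. It was also listed at 0 in all 3 CTRL_L libraries.

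Apoe, the main lipid carrier of the brain, had 3084, 3262 and 1969.6 TPM in KA_L against 16636, 10438 and 8767 TPM in KA_H. Its groups did not overlap, but it did not pass in the fit over all 15 libraries (log2 fold change 2.09, SE 0.87, adjusted p = 0.205). Ch25h, cholesterol 25-hydroxylase, had 0.04, 2.24 and 0 TPM in KA_L against 23.1, 20.6 and 99.98 TPM in KA_H (adjusted p = 0.0308; 0.163 without KA_H3 and above 0.05 without KA_L1, KA_L3, KA_H1 or KA_H2). Apod, a lipocalin, had 0, 0 and 0.29 TPM in KA_L against 6.58, 9.91 and 16.3 TPM in KA_H (adjusted p = 0.0188; 0.075 without KA_H3 and above 0.05 without KA_L1 or KA_L3). Among 10 fatty acid synthesis genes, Elovl6 (0.066 without KA_L1 and above 0.05 without KA_H1 or KA_H2) and Thrsp (above 0.05 without any 1 of the 6 libraries, up to 0.179 without KA_H1) rose and Acaca fell. For 3 of the 10 the filter was passed only through KA_H. Acaca, acetyl-CoA carboxylase, had 3763, 3537 and 3326 TPM in KA_L against 1463, 2089 and 1422 TPM in KA_H (log2 fold change -1.12, SE 0.24, adjusted p = 0.0191; 0.0954 without KA_H3 and above 0.05 without KA_L1, KA_L3 or KA_H1; 0.564 under upper-quartile scaling). It was far more abundant than the other listed synthesis genes, and its groups lay clear of each other.

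Antioxidant enzymes rose in 7 of 27 tested members, where 2.74% of all tested entries did, with none lower and a median log2 fold change of 2.31. Under upper-quartile scaling 11 rose, against 729 of all 12319 entries. For 7 of the 27 the filter was passed only through KA_H. Mgst1, a membrane-bound glutathione transferase, had 0, 0 and 0 TPM in KA_L against 44.3, 208 and 135 TPM in KA_H (adjusted p = 0.00271) and stayed called under all 6 omissions. Gpx4, which reduces lipid hydroperoxides in membranes, had 216, 59.5 and 98.2 TPM in KA_L against 674, 505 and 923 TPM in KA_H (adjusted p = 0.01; 0.0634 without KA_H3). Both were clear of KA_L in each KA_H library. Cat, catalase, had 0, 0.89 and 0.02 TPM in KA_L against 56.3, 36.8 and 43.8 TPM in KA_H (adjusted p = 0.0146; 0.0627 without KA_H3 and above 0.05 without KA_H1). Prdx3, Gstm1, Nqo1 and Gpx3 rose too (adjusted p = 0.0184, 0.0285, 0.0309 and 0.0375). Under omissions Prdx3 had 0.0948 without KA_H3 and above 0.05 without KA_L3, KA_H1 or KA_H2, and Gstm1 0.138 without KA_H3 and above 0.05 without KA_L1, KA_L3, KA_H1 or KA_H2. The adjusted p of Nqo1 was above 0.05 without any 1 of the 6 libraries, up to 0.127 without KA_H3, and that of Gpx3 above 0.05 without any 1 of the 6 libraries, up to 0.104 without KA_H2.

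No homeostatic microglia gene was called. None of 20 passed. Their median log2 fold change was -0.16 on the deposited scale and 0.61 under upper-quartile scaling, against 0.01 and 0.60 over all entries. Its sign depended on the scaling, which shifted all entries alike. The summed level of the 20 genes, given above, was higher in each KA_H library than in each KA_L library. P2ry12 had 2051, 2039.8 and 1565 TPM in KA_L against 1481, 2699 and 3183 TPM in KA_H, and the groups overlapped (adjusted p = 0.753). Csf1r, the receptor for the growth factor microglia need to survive, had 413, 735 and 374 TPM in KA_L against 289.6, 255 and 209 TPM in KA_H and did not pass (adjusted p = 0.259). Cx3cr1, the fractalkine receptor, had 225, 305 and 340.3 TPM in KA_L against 199, 123 and 113 TPM in KA_H and did not pass (adjusted p = 0.301). In both receptors each KA_H value lay below each KA_L value, as was found for 7 of the 20 genes, while 1 of the 20 lay above. Over all tested entries 11.6% lay lower and 12.8% higher without overlap.

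Disease-associated microglia genes had 7 of 24 members higher and none lower (median log2 fold change 1.70), where 2.74% of all tested entries rose. The number called higher was 12 under upper-quartile scaling and 5 under quantile normalization. They summed to 19921 to 26544 TPM in KA_L and 64867 to 69834 TPM in KA_H. Much of this sum came from B2m and Tyrobp, which also stand in other lists, and 17 of the 24 members did not pass. B2m, the light chain of MHC class I, had 7810.0, 8625 and 8137 TPM in KA_L against 20086, 30146 and 23859.5 TPM in KA_H. The KA_L libraries were closely grouped and every KA_H library lay well above them (log2 fold change 1.57, SE 0.25, adjusted p = 0.00369), and B2m stayed called under all 6 omissions. Cst7, an inhibitor of lysosomal cysteine proteases, had 331, 344 and 317 TPM in KA_L against 1323, 1287 and 2181 TPM in KA_H (adjusted p = 0.0297; 0.155 without KA_H3 and above 0.05 without KA_L1, KA_L3, KA_H1 or KA_H2). Itgax, the integrin CD11c, had 0.11, 0.57 and 1.26 TPM in KA_L against 52.4, 70.8 and 46.6 TPM in KA_H (adjusted p = 0.018; 0.0687 without KA_H3 and above 0.05 without KA_L1, KA_H1 or KA_H2). Spp1, encoding osteopontin, had 112, 128 and 344 TPM in KA_L against 851, 1555 and 2381 TPM in KA_H and did not pass (adjusted p = 0.181).

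Among Fc receptor and Syk signalling genes, both called members were adaptor chains. Fcer1g, the common gamma chain of Fc receptors, had 1837, 3197 and 1796 TPM in KA_L against 5171, 8129 and 6369 TPM in KA_H (log2 fold change 1.55, SE 0.26, adjusted p = 0.00541) and stayed called under all 6 omissions. Tyrobp, the adaptor of the lipid-sensing receptor Trem2, had 4861, 7051 and 4119 TPM in KA_L against 10419.7, 14514 and 14355 TPM in KA_H (log2 fold change 1.31, SE 0.27, adjusted p = 0.015; 0.0783 without KA_H3 and above 0.05 without KA_L1, KA_L3 or KA_H2). The other 14 of 16 did not pass. Over all tested entries 2.74% rose. Trem2 itself had 337, 648 and 329 TPM in KA_L against 879.7, 664 and 1011 TPM in KA_H (adjusted p = 0.244). Fcgr3 overlapped between the groups (adjusted p = 0.303), and the inhibitory phosphatase gene Inpp5d had 454, 315 and 144 TPM in KA_L against 134, 137 and 76.0 TPM in KA_H (adjusted p = 0.241).

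In the complement list 1 of 12 genes rose, where 2.74% of all tested entries did. This was C1qb, a chain of the initiating complex, with 3560.2, 4132 and 1687 TPM in KA_L against 8627, 7282 and 10153 TPM in KA_H (adjusted p = 0.0284; 0.127 without KA_H3 and above 0.05 without KA_L1, KA_L3, KA_H1 or KA_H2). Its partner chains C1qa and C1qc lay without overlap in the same direction and did not pass (log2 fold change 1.35 and 1.02, adjusted p = 0.125 and 0.14).

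MHC class II molecules present peptides from ingested material, and H2-Aa, their alpha chain, was among the entries with the smallest p-values. Of 12 tested members of this presentation list H2-Aa and Cd74 rose, all 12 had a positive log2 fold change and the median was 1.95. For 2 of the 12, H2-Aa among them, the filter was passed only through KA_H. H2-Aa had 0.1, 0.09 and 0.13 TPM in KA_L against 689.6, 155 and 799 TPM in KA_H (log2 fold change 8.64, SE 1.02, adjusted p = 0.000683) and stayed called under all 6 omissions. The CTRL_L libraries, with 123, 32.4 and 629 TPM, lay well above KA_L and overlapped KA_H. Cd74, the invariant chain, had 58.4, 18.6 and 37.5 TPM in KA_L against 1551, 187 and 951 TPM in KA_H (adjusted p = 0.0218; 0.107 without KA_H3 and above 0.05 without KA_L2, KA_L3 or KA_H1). H2-Ab1, the beta chain that pairs with H2-Aa, had 40.6, 0 and 21.8 TPM in KA_L against 460.2, 61.6 and 227 TPM in KA_H and did not pass (adjusted p = 0.171). In these 3 genes KA_H2 was the lowest of its group. Of 21 class I presentation genes B2m alone was called, and the heavy chain gene H2-K1 overlapped (adjusted p = 0.813).

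Promoter sequence of H2-Aa and B2m is shown because class II genes and B2m are known to share upstream elements that include an inverted CCAAT box. The 250 bases before the start come from RefSeq (GRCm38.p6), on the minus strand at chr17:34287824-34288073 for H2-Aa and on the plus strand at chr2:122147437-122147686 for B2m. Capitals mark the match to CCAAT on either strand, which reads ATTGG as printed and begins 48 bases before the start in H2-Aa and 53 bases before it in B2m.
H2-Aa: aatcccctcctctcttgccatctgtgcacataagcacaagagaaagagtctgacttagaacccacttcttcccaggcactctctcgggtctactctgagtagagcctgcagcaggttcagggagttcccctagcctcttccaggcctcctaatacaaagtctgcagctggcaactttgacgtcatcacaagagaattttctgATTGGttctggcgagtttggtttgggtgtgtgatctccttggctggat
B2m: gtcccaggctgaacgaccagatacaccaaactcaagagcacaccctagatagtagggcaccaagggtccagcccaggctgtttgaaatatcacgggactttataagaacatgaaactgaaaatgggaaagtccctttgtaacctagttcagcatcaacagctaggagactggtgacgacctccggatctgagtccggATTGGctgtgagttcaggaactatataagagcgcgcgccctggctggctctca
The motif was present in 80% of 10 windows from the 9 class II presentation genes in that table, in 34.7% of 9780 windows of tested genes and in 33.85% of all 32851 windows. It was present in 32.5% of 314 windows of genes higher in KA_H. A match describes these letters only.

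Inflammatory cytokine and toll-like receptor genes had no calls, and chemokine genes had 2. None of 18 inflammatory cytokine genes and none of 14 toll-like receptor and signalling genes passed (median log2 fold change 0.29 and 0.12). Ccl3, a chemokine abundant in activated microglia, had 3249, 4611 and 3440.3 TPM in KA_L against 3080.2, 5510.5 and 4677 TPM in KA_H, with overlapping groups (adjusted p = 0.842). Of 17 chemokine genes Ccl6 and Cx3cl1 rose, where 2.74% of all tested entries did. Neither was called under quantile normalization. The chemokine median was 1.93, and 14 of the 17 had a positive log2 fold change. Ccl6 had 352, 416 and 87.3 TPM in KA_L against 882, 1209.8 and 1259 TPM in KA_H (adjusted p = 0.0496; 0.18 without KA_H3 and above 0.05 without KA_L1, KA_L3, KA_H1 or KA_H2). Cx3cl1, the ligand of Cx3cr1, had 0, 0 and 0 TPM in KA_L against 4.48, 9.5 and 8.4 TPM in KA_H (adjusted p = 0.04; above 0.05 without any 1 of the 6 libraries, up to 0.133 without KA_H3).

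Interferon response genes had 1 member higher and 1 lower among 27, against 2.74% and 0.755% of all tested entries. Zbp1, a sensor of nucleic acids, had 0.03, 0 and 0 TPM in KA_L against 28.7, 19.9 and 23.5 TPM in KA_H (adjusted p = 0.0314; above 0.05 without any 1 of the 6 libraries, up to 0.101 without KA_H3). Ddx58, the RNA sensor RIG-I, had 2545, 2743 and 2315 TPM in KA_L against 720.1, 610.5 and 844 TPM in KA_H and fell (adjusted p = 0.035; above 0.05 without any 1 of the 6 libraries, up to 0.109 without KA_H2; 0.239 under upper-quartile scaling). Ifitm3, an antiviral membrane protein, had 101, 217 and 248 TPM in KA_L against 1016, 934 and 1776 TPM in KA_H and did not pass (adjusted p = 0.182). Bcl2a1d, an anti-apoptotic target of NF-kB, had 0.1, 1.04 and 0.79 TPM in KA_L against 54.2, 74.4 and 63.5 TPM in KA_H (adjusted p = 0.0309; 0.115 without KA_H3 and above 0.05 without KA_L1, KA_L3, KA_H1 or KA_H2). Its near-identical copy Bcl2a1b overlapped between the groups (adjusted p = 0.529), and reads cannot be divided with certainty between them.

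Lysosomal genes rose in part, where 2.74% of all tested entries rose. Of 26 hydrolases and membrane proteins, Cd63, Smpd1 and Laptm4a (above 0.05 without any 1 of the 6 libraries, up to 0.224 without KA_H3) rose and 23 did not pass (median log2 fold change 1.08). Cd63, a tetraspanin of late endosomes, had 288, 441 and 246 TPM in KA_L against 1400.0, 1393 and 1700.3 TPM in KA_H (log2 fold change 2.24, SE 0.42, adjusted p = 0.00978; 0.0507 without KA_H3). Smpd1, acid sphingomyelinase, had 0.89, 3.27 and 0 TPM in KA_L against 31.5, 61.0 and 95.5 TPM in KA_H (adjusted p = 0.0489; 0.195 without KA_H3 and above 0.05 without KA_L1, KA_L3, KA_H1 or KA_H2). Among cathepsins and cystatins Ctsb and Cst7 rose and 14 of 16 did not pass. Ctsb, the protease cathepsin B, had 339, 694 and 250.3 TPM in KA_L against 2249.7, 1413 and 1336 TPM in KA_H (adjusted p = 0.0312; 0.127 without KA_H1 and above 0.05 without KA_L1, KA_L3, KA_H2 or KA_H3). Ctsd, cathepsin D, had 2316, 2481 and 1446 TPM in KA_L against 4975, 3721 and 3803 TPM in KA_H and did not pass (adjusted p = 0.173).

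Of 17 subunits of the proton pump that acidifies lysosomes, 4 rose and 13 did not pass (median log2 fold change 1.23). Over all tested entries 2.74% rose. Atp6v1e1 had 4.88, 38.1 and 11.4 TPM in KA_L against 229, 167 and 121 TPM in KA_H (adjusted p = 0.0297; 0.11 without KA_H1 and above 0.05 without KA_L1, KA_L3, KA_H2 or KA_H3). Atp6v0c had 422, 228 and 99.2 TPM in KA_L against 1106, 651 and 825 TPM in KA_H (adjusted p = 0.0303; 0.12 without KA_H1 and above 0.05 without KA_L3, KA_H2 or KA_H3). Atp6v0e (adjusted p = 0.0394; 0.136 without KA_H3 and above 0.05 without KA_L1, KA_L3, KA_H1 or KA_H2) and Atp6v1f (adjusted p = 0.0484; 0.21 without KA_H3 and above 0.05 without KA_L1, KA_L3, KA_H1 or KA_H2) rose as well.

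Protein synthesis and turnover genes were mostly uncalled. Rpl37a (0.083 without KA_H3 and above 0.05 without KA_L3 or KA_H1) and Rps25 rose among 79 cytosolic ribosomal protein genes (median log2 fold change 0.78). This is near the 2.74% called higher over all tested entries. In 32 of the 79 KA_H lay above KA_L without overlap, against 12.8% of all entries. Under upper-quartile scaling 21 of the 79 were called higher, with a median of 1.55. Over all 12319 entries 729 were called higher under that scaling, with a median of 0.60. Rps25 had 501.73, 508 and 590.5 TPM in KA_L against 1699, 1748 and 2839.9 TPM in KA_H (adjusted p = 0.0148; 0.0893 without KA_H3 and above 0.05 without KA_L1). None of 38 mitochondrial ribosomal protein genes (median 1.90; 4 called higher under upper-quartile scaling) and none of 24 translation factor genes (median 0.49) passed. Of 30 proteasome subunits Psmb3 (0.133 without KA_H3 and above 0.05 without KA_L1, KA_L3, KA_H1 or KA_H2) and Psmb5 rose, where 2.74% of all tested entries did. Psmb5, a catalytic subunit, had 0, 1.74 and 0.12 TPM in KA_L against 123, 58.1 and 130.2 TPM in KA_H (adjusted p = 0.00348) and stayed called under all 6 omissions.

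Tmem147 and Churc1 had the smallest p-values of all entries. Tmem147, a membrane protein of the endoplasmic reticulum, had 0, 0.47 and 0 TPM in KA_L against 153, 119 and 265 TPM in KA_H (log2 fold change 7.23, SE 0.74, adjusted p = 0.000161). Churc1, a zinc-binding transcriptional regulator, had 3.92, 1.16 and 1.79 TPM in KA_L against 251, 372 and 428 TPM in KA_H (log2 fold change 6.79, SE 0.69, adjusted p = 0.000161). Both stayed called under all 6 omissions, and in both each CTRL_L value, at 52.3, 26.6 and 104 TPM and 126, 238 and 615 TPM, lay above each KA_L value. Gpm6a, a neuronal and epithelial membrane glycoprotein, had 0, 0.02 and 0 TPM in KA_L against 98.0, 349 and 244 TPM in KA_H (adjusted p = 0.000763) and stayed called as well.

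The heat shock, unfolded protein response and cell cycle lists each held 1 call, where 2.74% of all tested entries were called higher. Cryab, a small heat shock protein, had 0, 37.3 and 0.22 TPM in KA_L against 301, 139.7 and 558 TPM in KA_H (adjusted p = 0.0489; 0.196 without KA_H3 and above 0.05 without KA_L1, KA_L3, KA_H1 or KA_H2) among 18 heat shock and chaperone genes. Pdia4, a protein disulphide isomerase, had 2.71, 5.66 and 0.07 TPM in KA_L against 50.9, 50.5 and 64.7 TPM in KA_H (adjusted p = 0.0439; 0.164 without KA_H3 and above 0.05 without KA_L1, KA_L3, KA_H1 or KA_H2) among 17 genes of the unfolded protein response. Both were higher in KA_H and were the 1 called member of their list. Birc5, which encodes survivin and is made in dividing cells, had 0.02, 0.02 and 0.02 TPM in KA_L against 53.3, 14.2 and 48.4 TPM in KA_H (adjusted p = 0.015; 0.0619 without KA_H3 and above 0.05 without KA_L1 or KA_H1) among 21 cell cycle genes. In a list of ubiquitin-like, COP9 and small housekeeping genes 3 of 27 rose, namely Cops6, Dad1 (adjusted p = 0.0375; above 0.05 without any 1 of the 6 libraries, up to 0.164 without KA_H3) and Ost4 (adjusted p = 0.0487; 0.185 without KA_H3 and above 0.05 without KA_L1, KA_L3, KA_H1 or KA_H2). Cops6, a subunit of the COP9 signalosome, had 0, 0.41 and 0.08 TPM in KA_L against 170.2, 54.6 and 50.8 TPM in KA_H (adjusted p = 0.0141; 0.0698 without KA_H1). In the actin cytoskeleton and motility list S100a11 rose (adjusted p = 0.0498; 0.187 without KA_H3 and above 0.05 without KA_L1, KA_L3, KA_H1 or KA_H2) and 29 of 30 did not pass.

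**Figure D2:**
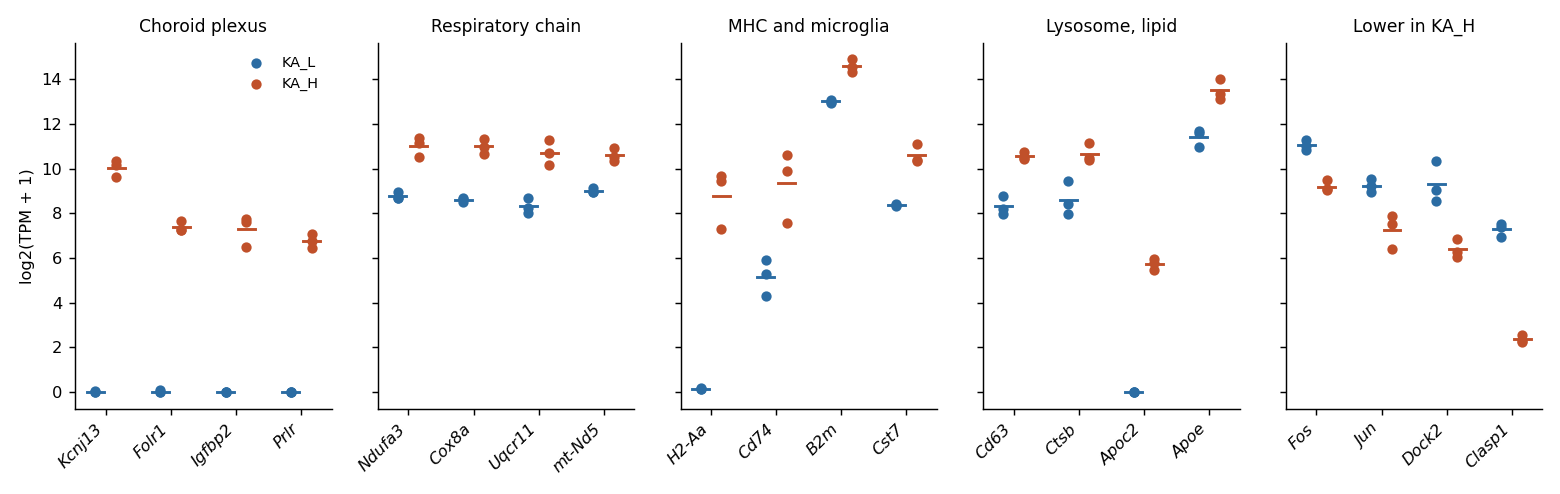
Expression of 20 genes in each KA library as log2(TPM + 1), with points for libraries and bars for means of 3. The KA_H and KA_L points of each gene do not overlap, and Kcnj13, Folr1, Igfbp2, Prlr, H2-Aa and Apoc2 sit near 0 in all KA_L libraries. Apoe did not pass the test.

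Immediate early genes, which are transcribed soon after a stimulus, had no member higher in KA_H by the test. Fos and Jun, which together form the AP-1 transcription factor, fell, and 20 of 22 members did not pass (median log2 fold change -0.90). Fos had 1829.7, 2479.8 and 2084 TPM in KA_L against 537, 706 and 519.6 TPM in KA_H (log2 fold change -1.86, SE 0.33, adjusted p = 0.0082; 0.0799 under upper-quartile scaling). The CTRL_L libraries, with 1832, 1269.6 and 1590.0 TPM, also lay above KA_H, and Fos stayed called under all 6 omissions. Jun had 501, 593 and 740.2 TPM in KA_L against 181, 235 and 83.2 TPM in KA_H (adjusted p = 0.0344; 0.17 without KA_H3 and above 0.05 without KA_L1, KA_L2, KA_L3 or KA_H1; 0.16 under upper-quartile scaling). Egr1 had 328, 461 and 600.3 TPM in KA_L against 184, 169 and 104 TPM in KA_H and did not pass (adjusted p = 0.0712). In 9 of the 22 each KA_H value lay below each KA_L value, and in 1 each lay above. Over all tested entries 0.755% fell, 11.6% lay lower and 12.8% higher without overlap. The list median was -0.23 under upper-quartile scaling, against 0.60 over all entries.

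The promoter of Fos is shown because calcium and cyclic AMP signals are known to act on it through cyclic AMP response elements. The 250 bases before its start (RefSeq, GRCm38.p6, plus strand, chr12:85473640-85473889) hold TGACG, the opening letters of that element, at 129 and 66 bases before the start, in capitals.
Fos: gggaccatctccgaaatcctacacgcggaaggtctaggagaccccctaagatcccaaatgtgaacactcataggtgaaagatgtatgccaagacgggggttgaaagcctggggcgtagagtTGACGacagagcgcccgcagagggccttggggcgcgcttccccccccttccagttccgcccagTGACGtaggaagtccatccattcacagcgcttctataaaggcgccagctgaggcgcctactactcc
On either strand the motif was present in 52.2% of 23 windows from the 19 immediate early genes in that table, in 26.75% of 9780 windows of tested genes and in 17.8% of all 32851 windows. Among 64 windows of genes lower in KA_H it was present in 26.6%.

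Microglial transcription factors had Bhlhe41 and Rel lower and none higher among 29, where 0.755% of all tested entries fell. Under quantile normalization none of the 29 was called. The list median log2 fold change was -0.54 on the deposited scale and 0.22 under upper-quartile scaling, against 0.01 and 0.60 over all entries. Bhlhe41, a repressor of the basic helix-loop-helix class, had 498, 184 and 194 TPM in KA_L against 62.3, 37.0 and 25.3 TPM in KA_H (adjusted p = 0.0442; above 0.05 without any 1 of the 6 libraries, up to 0.183 without KA_H3; 0.115 under upper-quartile scaling). Rel, a subunit of NF-kB, had 474, 222 and 297 TPM in KA_L against 24.0, 42.1 and 46.9 TPM in KA_H (adjusted p = 0.0489; above 0.05 without any 1 of the 6 libraries, up to 0.163 without KA_H1; 0.116 under upper-quartile scaling). Maf, a regulator of microglial identity, had 458, 429 and 457 TPM in KA_L against 130.04, 135 and 109 TPM in KA_H and did not pass (adjusted p = 0.0956). Mef2c, another such regulator, had 338, 366 and 202 TPM in KA_L against 126, 74.1 and 70.4 TPM in KA_H and did not pass (adjusted p = 0.0891).

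Long genes were lower more often than short ones. Among 9121 tested protein-coding genes ordered by the span from gene start to end, 142 of the shortest quartile (up to 11.86 kb) rose and 7 fell. In the longest quartile (64.02 kb or more) 26 rose and 32 fell. The median log2 fold change over the 4 quartiles was 1.13, 0.53, -0.01 and -0.69, and the median span was 12.3 kb for genes that rose and 82.9 kb for genes that fell. By exonic length, 176 rose and 6 fell in the shortest quartile, and 14 rose and 32 fell in the longest. Genes are not independent replicates, so this is a description across genes.

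**Figure D3:**
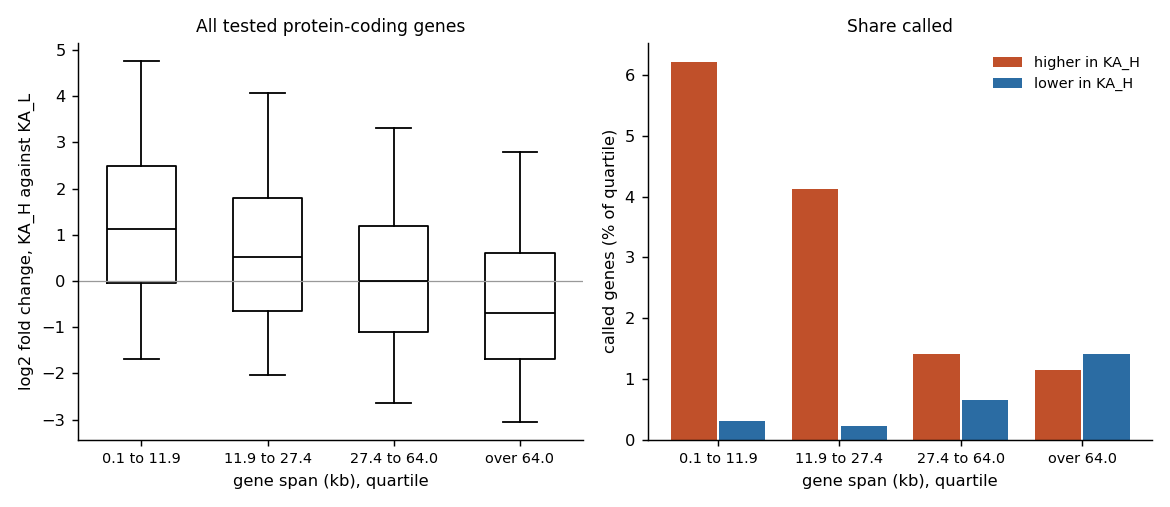
Left, log2 fold change of KA_H against KA_L by quartile of gene span for tested protein-coding genes (box, quartiles; line, median; whiskers, 5th to 95th percentile). Right, the share of each quartile called higher or lower, which for higher calls is 6.23% in the shortest quartile and 1.14% in the longest.

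Clasp1, Inpp4b and Zbtb20 were among the 12 lower entries that stayed called under all 6 omissions. Clasp1, which stabilises microtubule ends, had 184, 123 and 167 TPM in KA_L against 3.91, 3.81 and 4.94 TPM in KA_H (log2 fold change -4.92, SE 0.82, adjusted p = 0.00513). Inpp4b, a phosphoinositide phosphatase, had 654, 389.8 and 680.0 TPM in KA_L against 46.9, 25.6 and 24.4 TPM in KA_H (log2 fold change -4.13, SE 0.75, adjusted p = 0.00926). Zbtb20, a zinc-finger repressor, had 828, 369.6 and 850.4 TPM in KA_L against 89.7, 66.1 and 72.8 TPM in KA_H (log2 fold change -3.06, SE 0.53, adjusted p = 0.00602). The CTRL_L values of these 3 genes lay between those of the groups. Notch2, a receptor of cell contact signalling, had 107, 90.8 and 115 TPM in KA_L against 1.66, 0.39 and 7.06 TPM in KA_H (adjusted p = 0.0372; above 0.05 without any 1 of the 6 libraries, up to 0.123 without KA_H2). Csmd3, a very long gene for a membrane protein with complement-like domains, had 435, 391 and 412 TPM in KA_L against 58.9, 71.7 and 24.2 TPM in KA_H (adjusted p = 0.00984; 0.0547 without KA_H3).

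Dock2 and Elmo1, which together activate the GTPase Rac in leukocytes, both fell. Dock2 had 1277, 374 and 531 TPM in KA_L against 76.1, 115 and 65.5 TPM in KA_H (log2 fold change -2.92, SE 0.55, adjusted p = 0.00997; 0.0536 without KA_H3 and above 0.05 without KA_L1). Elmo1 had 448, 222 and 360.2 TPM in KA_L against 29.0, 51.5 and 24.8 TPM in KA_H (log2 fold change -3.27, SE 0.68, adjusted p = 0.0166; 0.083 without KA_H3 and above 0.05 without KA_L1, KA_L3 or KA_H1). In the phagocytosis list that holds both, Mfge8 rose and 20 of 23 did not pass (median log2 fold change -0.20, but 0.57 under upper-quartile scaling and 0.15 under quantile normalization, so its sign depended on the scaling). Over all entries the median was 0.60 under upper-quartile scaling and -0.19 under quantile normalization. Mfge8, which bridges dying cells to phagocytes, had 0, 0 and 0 TPM in KA_L against 11.8, 18.1 and 9.28 TPM in KA_H (adjusted p = 0.0245; 0.0745 without KA_L1 and above 0.05 without KA_L3, KA_H1, KA_H2 or KA_H3). Mertk, a receptor for dying cells, had 362, 469.7 and 470.2 TPM in KA_L against 178, 297 and 83.0 TPM in KA_H and did not pass (adjusted p = 0.165).

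Small structural RNAs were among the lower entries, which made up 0.755% of those tested. Of 5 tested Y RNA, RNase P and small nuclear RNA genes, Rny3 and Rpph1 fell (median log2 fold change -4.01), and the listed genes summed to 1471, 1162 and 896 TPM in the KA_L libraries and 92.6, 214 and 41.6 TPM in the KA_H libraries. Rny3, a Y RNA that binds the Ro60 protein, had 992, 511 and 437 TPM in KA_L against 3.88, 152 and 0.2 TPM in KA_H (adjusted p = 0.0248; 0.13 without KA_H3 and above 0.05 without KA_L1, KA_L3 or KA_H1). Rpph1, the RNA of RNase P, had 65.2, 137 and 36.7 TPM in KA_L against 3.75, 3.24 and 3.1 TPM in KA_H (adjusted p = 0.0484; above 0.05 without any 1 of the 6 libraries, up to 0.157 without KA_H3; 0.0761 under upper-quartile scaling). None of 14 nuclear-retained long non-coding RNAs passed (median -0.91, and -0.14 under upper-quartile scaling). Malat1, the most abundant of them, had 9016, 9914 and 16540.2 TPM in KA_L against 8374, 6141 and 3687 TPM in KA_H (adjusted p = 0.0812).

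Among the most abundant entries that fell was Eif4g3, a translation initiation factor gene, with 14924, 13908 and 14215 TPM in KA_L against 6529, 7941 and 5672 TPM in KA_H (log2 fold change -1.11, SE 0.21, adjusted p = 0.00978; 0.0534 without KA_H3; 0.496 under upper-quartile scaling). Mllt6, a chromatin protein gene, had 7725, 7577 and 7115 TPM in KA_L against 3099, 3412 and 2411 TPM in KA_H (adjusted p = 0.0245; 0.117 without KA_H3 and above 0.05 without KA_L1, KA_L3 or KA_H1; 0.378 under upper-quartile scaling). Assembled loci held 11.4%, 11.7% and 12.1% of the total in KA_L and 5.08%, 6.78% and 4.51% in KA_H. Of 1889 such loci 5 rose and 15 fell. With TPM rescaled after leaving them out, 434 entries were called.

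**Figure D4:**
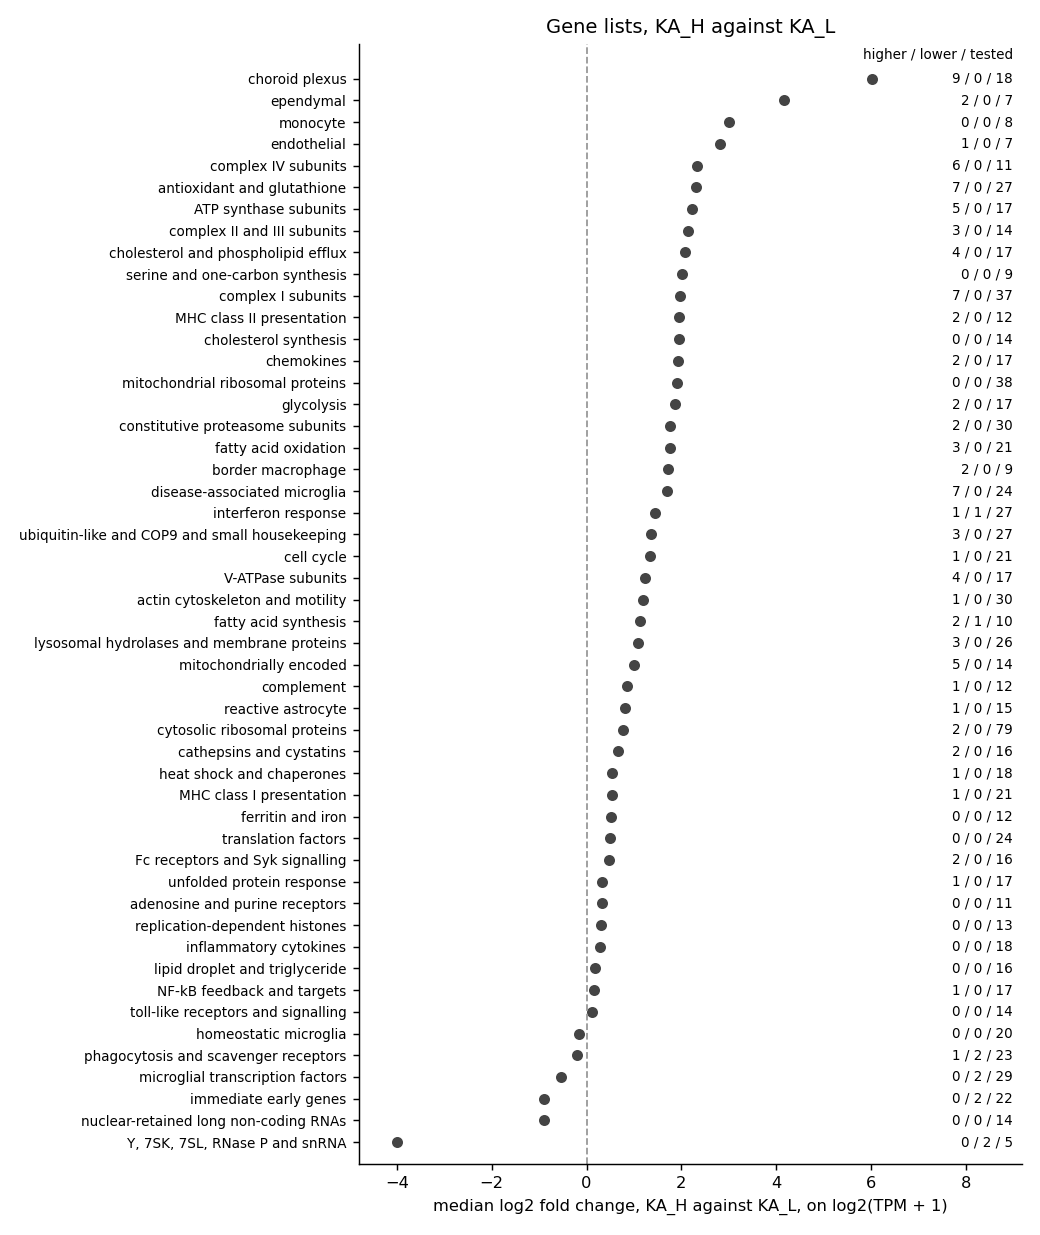
Median log2 fold change of KA_H against KA_L for each gene list with at least 5 tested members, with members higher, lower and tested printed beside it and a dashed line at the median of all tested entries (0.01). Choroid plexus genes stand highest at 6.03, and the Y RNA, RNase P and small nuclear RNA list lowest at -4.01.

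The APOE condition was used to ask whether the difference between the letters was shared. APOE_H and APOE_L differed in 819 entries (6.65%), 573 higher (4.65%) and 246 lower (2%). Of the 338 entries higher in KA_H, 160 were also called higher in APOE_H, 47.3% of the first list and 27.9% of the second. Of the 93 lower entries, 37 were also called lower, 39.8% of the first list and 15.04% of the second. In 90.2% of the higher entries the APOE fold change was positive, as it was in 58.7% of all tested entries. These comparisons share no library, although the spread is estimated from all 15. In the choroid plexus list 17 of 18 rose in APOE_H with a median of 7.14, and the medians of the 4 respiratory chain lists ran from 1.46 to 2.51.

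A test of the difference between the conditions (the interaction of letter and condition) called 16 entries (0.13%), of which 10 are among those higher after KA and 1 among those lower. B2m had 16319.6, 12139.5 and 25500.2 TPM in APOE_L against 13952, 9127 and 12169 TPM in APOE_H, unlike after KA (interaction on the log2 scale 2.14, SE 0.35, adjusted p = 0.0356, limma). Fcer1g had 3989, 4018 and 4258 TPM in APOE_L against 3127, 2628 and 2344 TPM in APOE_H (interaction 2.16, SE 0.37, adjusted p = 0.0356). Tmem147 and Churc1 were well above 0 in APOE_L, at 181, 314 and 81.5 TPM and 95.8, 219 and 77.3 TPM, in contrast to KA_L. Mitochondrially encoded genes had a median of 1.01 after KA and -1.03 in the APOE condition, where 7 of 14 fell. H2-Aa, Kcnj13 and Ndufa1 were not called in this test (adjusted p = 0.352, 0.931 and 0.649). The count of 16 became 0 without KA_L1 or KA_L3, 34 without KA_L2, and 9, 1 and 7 without KA_H1, KA_H2 and KA_H3. It became 0 without APOE_L1, APOE_H1 or APOE_H3, 1 without APOE_L2, 5 without APOE_L3 and 14 without APOE_H2. It also became 0 with quantile normalization or a pseudocount of 5 (1090 and 1103 entries at an unadjusted p under 0.05), 1 with the replicate block, 4 with a mean of 5 TPM in both KA groups and 31 with upper-quartile scaling.

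**Figure D5:**
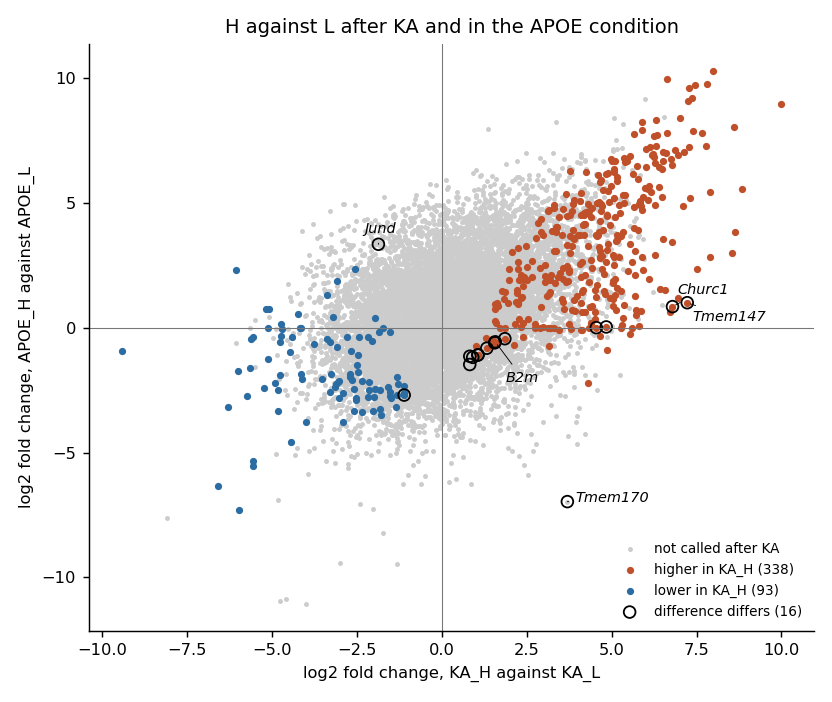
Log2 fold change of H against L after KA (horizontal axis) and in the APOE condition (vertical axis), 1 point per tested entry, with entries called after KA coloured and the 16 called in the interaction test ringed. Of the 338 entries higher after KA, 305 have positive values on both axes, while B2m and Fcer1g have positive values after KA and negative values in the APOE condition.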

How the data were processed

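The deposited table gives TPM (a level scaled to transcript length and library total) for 15 libraries, made by the authors from total RNA, per the labels. The submitters' processing notes name STAR, with no version, and GRCh38, a human build, whereas the identifiers are those of mouse genes. The quantifier and annotation are not given in the sources used here. Of 55416 Ensembl identifiers 52083 matched a symbol. Entries that reached 1 TPM in 3 or more KA libraries were fitted as log2(TPM + 1) with limma 3.58.1 (R 4.3.3, 5 group means over 15 libraries, 10 residual degrees of freedom, trended variance) and adjusted by Benjamini-Hochberg over 12319 entries. An exact permutation test of 3 against 3 cannot go below p = 0.1, so none was run. No libraries were identical.

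Named genes were taken from, in each direction, up to 20 with the largest change among called genes with a symbol, no overlap and a mean of 5 TPM in the higher group, and the 20 with the smallest adjusted p, plus called list members, up to 5 uncalled members per list by level, defining markers, Apoe and up to 10 interaction genes by adjusted p; the other interaction genes were named because all 16 are given. The members and lists were chosen with earlier results of these data known. Alternatives were the libraries fitted, replicate block, pseudocount, filter, scaling, array weights, variance trend and omission of each library. Promoters are 250 bases before RefSeq starts (GRCm38.p6), matched by symbol.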

Additional observations from a re-analysis of the deposited data

Results flagged for a closer look

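The interaction test in limma, with Benjamini-Hochberg adjustment, called 16 entries for a difference between H and L that was not the same in the KA and the APOE condition. The calls depended on the processing, with 0 left under quantile normalization or a pseudocount of 5 (1090 and 1103 at an unadjusted p under 0.05) and 1 with the replicate block. B2m and Fcer1g were higher in KA_H and had negative log2 fold changes in the APOE condition (interaction 2.14 and 2.16 on the log2 scale, adjusted p = 0.0356 for both). Tmem147 and Churc1 were near 0 in KA_L and not in APOE_L (interaction 6.23 and 5.95, adjusted p = 0.0356 for both). The mitochondrially encoded genes mt-Atp6 (adjusted p = 0.0356), mt-Atp8, mt-Co2, mt-Nd1 and mt-Cytb (adjusted p = 0.044 each) had positive log2 fold changes after KA and negative ones in the APOE condition, with interactions of 2.30, 2.10, 1.97, 2.16 and 2.15. The near-copies Gm28437 and Gm29216 had adjusted p = 0.0356. The uncharacterised entries 6720489N17Rik and 1700016J18Rik had adjusted p = 0.0371 and 0.044. Tmem170 had an interaction of 10.66 and Jund, an AP-1 subunit, of -5.21 (adjusted p = 0.044 each). Eif4g3 was lower under both conditions and by more in the APOE condition (interaction 1.59, adjusted p = 0.044). Without any 1 of KA_L1, KA_L3, APOE_L1, APOE_H1 or APOE_H3 the test called 0 entries (1190, 1173, 1066, 826 and 845 at an unadjusted p under 0.05).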

How the results depend on the processing

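For KA_H against KA_L the count of 431 was 96 with the 6 KA libraries alone, 215 with CTRL_L, KA_L and KA_H, 647 with the 12 KA and APOE libraries, 123 with no filter beyond a value above 0, 260 with 1 TPM in 3 of all 15 libraries, 91 with a mean of 5 TPM in both groups, 771 with upper-quartile scaling, 276 without the variance trend and 40 tested against a log2 fold change of 1. The fits without the trend, with the 12 libraries and with the fold threshold were chosen after seeing the data. Omission of 1 library gave 99 to 457. Within 1.5 times lay the counts with pseudocounts of 0.1 (481) and 5 (314), quantile normalization (498, 74.9% of the calls higher against 78.4%), array weights (337), and the replicate block (337). For APOE_H against APOE_L, 819 became 483 with a mean of 5 TPM (53.2% of the calls higher, against 70%), 911 with quantile normalization (53.2% higher), 792 with the replicate block and 288 to 582 under omissions. For the interaction, 16 became 1 with the replicate block, 4 with a mean of 5 TPM, 31 with upper-quartile scaling, 0 with a pseudocount of 5 or quantile normalization (1103 and 1090 entries at an unadjusted p under 0.05 in limma), and 0 to 34 under omissions. Same-numbered KA libraries did not deviate together (correlations 0.00829, -0.0426 and -0.0021), so the numbers were not taken as pairs. Of 152 named called genes none reversed in the 22 settings, and 13 were called in every one; of 252 named uncalled genes 78 were called in at least 1. TPM holds no depth, so counting error is unknown, and genes listed at 0 have no upper limit here.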
